A study of Mus musculus with 9 samples.

Results

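The genes described are 38 that build or use the manchette and the intraflagellar transport (IFT) machinery, taken by name from a table of read counts per gene that lists 19991 genes. All 38 were present and all passed the filter on low counts, as did 15834 genes in all. The counts come from testis RNA of mice of the ICR strain, 8 weeks old, in 3 groups of 3 libraries. Control mice were injected with PBS, AZ82 mice with AZ82 at 1 µM and CW069 mice with CW069 at 50 µM. AZ82 and CW069 are inhibitors of KIFC1, a minus-end-directed kinesin, and each is known here by its code name. No transgene or deletion is named for any group, and the labels give neither the route or time of injection nor the solvent of the inhibitors. Whether the 3 samples of a group are 3 animals is not stated, and a p-value therefore reflects only how far these samples scatter, which may be partly technical.

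The manchette is a skirt of microtubules that surrounds the nucleus of the elongating spermatid. It helps to shape the sperm head, and proteins move along it towards the base of the growing tail. Intraflagellar transport carries cargo along the tail's own microtubules. The IFT-B complex is linked with outward transport by kinesin and the IFT-A complex with inward transport by dynein. The BBSome is an adaptor for membrane proteins. Many subunits of both IFT complexes have been found on the manchette as well as in the tail. The 38 genes were grouped by role as manchette linkers (5), microtubule severing and plus-end proteins (5), flagellar and basal body cargo (8), IFT-B core (7) and peripheral (4) subunits, IFT-A subunits (3) and BBSome subunits (6).

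Genes of cilia and flagella often carry an X-box, the sequence bound by RFX transcription factors, close to their start. Promoters were read from a RefSeq table of build GRCm38.p6, from 250 bases before the annotated start to 50 after it. It holds 34 promoters of 31 of the 38 genes; Hook3, Rimbp3, Katnal2, Katna1, Ift80, Ift81 and Ift122 are not in it. Searched on both strands for GTNNCC followed by any 3 bases and then GNAAC, 9 of the 31 genes had a match, 10 matches in all, 7 of them upstream of the start. That is 26.5% of the 34 promoters against 2.17% of all 32851 promoters of the table. The matching stretches of these 9 genes are shown because the motif did not enter the choice of the 38; the other 22 of the 31 have no match. Each is written 5′ to 3′ on the gene's strand with the 14 matching bases in capitals and up to 8 bases on either side. In Mapre3, Spag6l, Ift57, Bbs1 and the Ift22 stretch at base -63 the match is on the opposite strand. There the pattern is read from the reverse complement of the capitals.
Spag16: ggcaacgcGTTGCCGTAGTAACtgcggacg
Bbs7: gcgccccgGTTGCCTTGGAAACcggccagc
Mapre3: tgttcccaGTTGCCATGGTGACacggtaaa
Ift22: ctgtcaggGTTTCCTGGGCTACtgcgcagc
Ift22: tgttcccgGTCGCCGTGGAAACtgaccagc
Lrguk: tgacgtcaGTCTCCTAGGCAACgcgtataa
Bbs4: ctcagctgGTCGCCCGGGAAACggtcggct
Spag6l: tgctgtcgGTTGCCCTGGAGACgc
Ift57: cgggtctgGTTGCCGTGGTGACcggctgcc
Bbs1: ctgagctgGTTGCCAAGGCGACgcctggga
These lie at chr1:69826859-69826888 (plus strand), chr3:36613489-36613518 (minus), chr5:30814480-30814509 (plus), chr5:136908079-136908108 and chr5:136908109-136908138 (both Ift22, plus), chr6:34029422-34029451 (plus), chr9:59353464-59353493 (minus), chr16:16829314-16829337 (minus), chr16:49699199-49699228 (plus) and chr19:4906605-4906634 (minus). The match begins at base -103 from the start in Spag16, -121 in Bbs7, -153 in Mapre3, -63 and -33 in Ift22, -18 in Lrguk and -87 in Ift57. It lies after the start in Bbs4, Spag6l and Bbs1, beginning at bases 24, 35 and 2.

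Ift22, which encodes a Rab-like small GTPase of the IFT-B core, is the only one of the 31 with 2 matches. In the BBSome, Bbs1, Bbs4 and Bbs7 had a match and Bbs2, Bbs5 and Bbs9 did not. The shorter X-box core GTTGCC, which overlaps many of these X-boxes, occurred in 16 of the 31 genes (47.1% of their promoters against 12.5% of all), and in 9 when only bases upstream of the start were read. The cAMP response element TGACGTCA, bound by CREM in spermatids, occurred in Lrguk, Spag6l and Ift57 (8.82% of promoters against 1.79%). Lrguk and Ift57 carry both motifs upstream of the start and are shown at greater length, with the cAMP response element and the X-box in capitals.
Ift57: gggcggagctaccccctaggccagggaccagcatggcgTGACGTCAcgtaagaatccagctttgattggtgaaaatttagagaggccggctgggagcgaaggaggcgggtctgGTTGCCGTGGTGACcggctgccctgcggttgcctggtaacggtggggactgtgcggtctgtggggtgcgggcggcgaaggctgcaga
Lrguk: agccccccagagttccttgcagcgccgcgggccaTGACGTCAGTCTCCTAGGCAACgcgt
The Lrguk stretch is chr6:34029388-34029447 and the Ift57 stretch chr16:49699094-49699293, both on the plus strand and ending at the base before the start. In Lrguk the cAMP response element directly precedes the X-box, and in Ift57 it begins at base -162. A match to these letters is a description of the promoter, not evidence that a factor binds there.

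**Figure D1:**
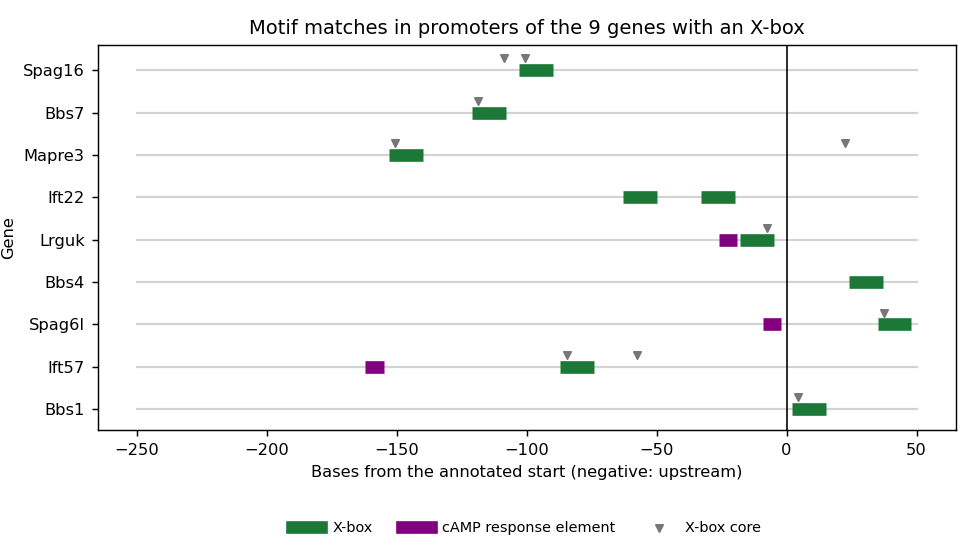
Position of motif matches in the promoters of the 9 genes with an X-box, in bases from the annotated start (negative is upstream). Green bars are X-boxes, purple bars cAMP response elements and grey triangles X-box cores; Spag16, Bbs7, Mapre3, Ift22, Lrguk and Ift57 carry the X-box upstream of the start, Bbs4, Spag6l and Bbs1 after it.

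Library totals ran from 13856070 to 18102593 counts. Levels are given in CPM, counts divided by library size, with TMM factors that correct for differences in library composition. The factor was 1.09 in Control 3 and between 0.973 (CW069 3) and 1.02 (CW069 2) in the other libraries. Kifc1, the gene of the inhibitors' target, stood at 8.66 ± 0.816 CPM in Control, 9.33 ± 0.280 in AZ82 and 9.57 ± 0.820 in CW069 (SD, n = 3), an RNA level that does not measure the activity of the protein. Kifc5b, a gene of the same kinesin family, stood at 10.0 ± 0.967 CPM in Control, 10.0 ± 0.541 in AZ82 and 9.73 ± 0.672 in CW069. Sequence shared by Kifc1 and Kifc5b was not measured. Whether reads of one were lost or placed with the other is not known. Control 3 stood apart in late germ cell transcripts. Its 9 elongating spermatid markers, such as the protamines, summed to 6546 CPM against 15350 and 17354 CPM in the other Control libraries, and 9 of 9 were lower than in both. AZ82 libraries summed to 15730 to 19130 CPM and CW069 libraries to 12770 to 14960 CPM for the same markers, and none of the 9 was at 0. Markers of the epididymis summed to at most 3.38 CPM and those of the rete testis and efferent ducts, whose ciliated cells also use IFT, to at most 7.79 CPM in any library.

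The 38 genes were well expressed and steady. Their mean levels ran from 25.3 to 778 CPM with a median of 98.5 CPM, against 18.7 CPM for all genes tested, and together they took 0.750% to 0.794% of a library's counts. Each had at least 295 counts in every library. The SD of the log2 level within groups had a median of 0.0944, against 0.0999 for 6743 genes of the same range of levels. In 35 of the 38 the highest of the 9 libraries was less than 1.5 times the lowest. The exceptions are Hook1, Mapre3 and Bbs9.

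Between genes, levels were compared per kilobase of principal transcript, with a single length per gene. Which transcripts the reads came from was not measured, and the order depends on this length. For Hook3 it is 12836 bases against a median of 701 over its protein-coding transcripts, and for Bbs1 5602 against 1841. Meig1, whose product helps to bring cargo along the manchette, was far above the rest at 1014 ± 120 CPM per kb in Control (SD, n = 3). Spag6l followed at 151 ± 4.89 CPM per kb; it encodes a protein of the central pair of the axoneme. Next came Rimbp3, a manchette protein that binds HOOK1, at 139 ± 2.66, and Ift140, a large IFT-A subunit, at 134 ± 11.8 CPM per kb, and the Control libraries of this pair overlapped. At the lower end stood Bbs2 (15.1 ± 0.870), Bbs4 (11.8 ± 0.159), Bbs1 (8.21 ± 0.700) and Hook3 (1.99 ± 0.0912 CPM per kb). Those 4 are separated from each other without overlap of Control libraries, whereas in the middle of the order, from Ift80 at 33.1 to Iqcg at 17.1 CPM per kb, each gene overlapped its neighbour.

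**Figure D2:**
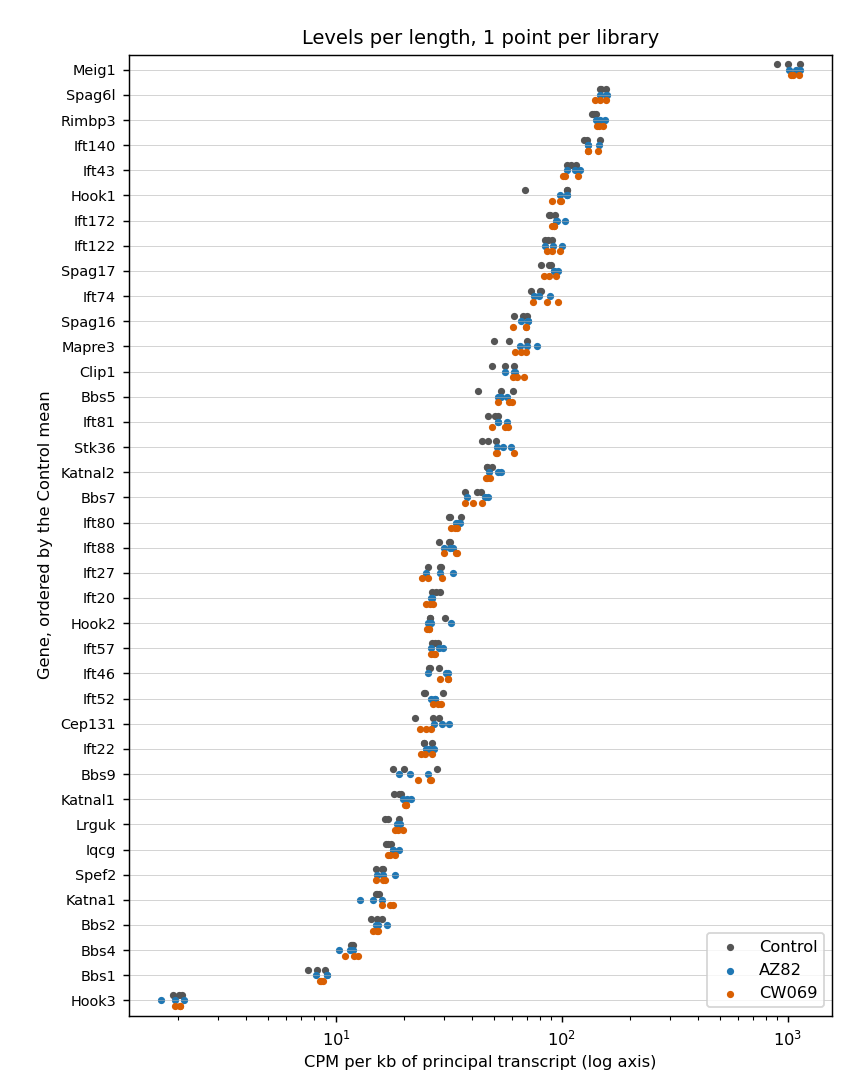
Level of each of the 38 genes in CPM per kb of principal transcript (log axis), 1 point per library, in the order of the Control mean. On this scale Meig1 lies far above all others and Hook3, whose principal transcript has 12836 bases, far below. For nearly all genes the 3 groups lie on top of each other.

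Per kilobase of principal transcript, subunits of 1 complex did not share a level. For some subunits this length is far above the median over their transcripts: Ift172 5403 against 750.5 bases, Ift46 4169 against 602.5. For Ift22 it is 3071 against 653.5 and for Ift81 2950 against 925, so these differences depend on the length used. Among IFT-A genes Control means were 134 for Ift140, 110 for Ift43 and 87.3 CPM per kb for Ift122. Among IFT-B core genes Ift74 and Ift81, whose products pair to bind tubulin, led with 78.2 ± 4.49 and 49.9 ± 2.52 CPM per kb, and the other 5 lay between 25.2 (Ift22) and 30.8 (Ift88). Ift172, which caps the peripheral part of IFT-B, stood at 90.0 ± 2.96 and its partners Ift80, Ift20 and Ift57 at 33.1, 27.7 and 27.5 CPM per kb. In the BBSome, Bbs5 led at 52.4 ± 9.31 and Bbs1 was lowest.

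None of the 38 genes passed the test for a difference between an inhibitor group and Control. Counts of all genes were fitted with edgeR's quasi-likelihood test, two-sided, with Benjamini-Hochberg adjustment over the 15834 genes tested at a threshold of 0.05; a gene below it is said to be called. In AZ82 against Control 0 of 38 were called (0% of all genes tested), with a smallest adjusted p of 0.56. CW069 against Control gave 0 of 38 (0% of all genes), with a smallest adjusted p of 0.675. For the mean of both inhibitors against Control the count was also 0 of 38, beside 0.00632% of all genes, which is the single gene Slc1a7. DESeq2 and limma-voom also called 0 of 38 in each of these comparisons. Every comparison with Control uses the same 3 Control libraries, so the results for the inhibitors are not independent of each other.

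The intervals show how large a change the scatter of these samples leaves possible for each gene. That scatter may be partly technical, so the intervals may be too narrow for a difference between mice. Each interval is for its own gene and does not hold for all 38 jointly. All 38 genes had a 95% interval of the fold change inside 1.5-fold in either direction, in AZ82 against Control and in CW069 against Control alike. Of all genes tested, 68.8% and 70.4% had so narrow an interval. These include many genes of lower level: none of the 38 lay below the median of all genes tested, 18.7 CPM. The share among genes of like level was not computed. Leaving out any 1 library left at least 37 of 38 inside 1.5-fold. In whole tissue, fewer cells of a type and less RNA per cell cannot be told apart.

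Log2 fold changes of AZ82 against Control ran from -0.08 to 0.25 over the 38 genes, with a median of 0.07 against -0.001 for all genes tested. Of the 38, 33 were above 0 (all genes, 49.7%), but 17 were when counts were scaled by library size alone, where the median of the 38 was -0.01 and that of all genes -0.08. Those of CW069 against Control ran from -0.10 to 0.20 with a median of 0.04, and 27 were above 0 (all genes, 49.0%) or, by library size alone, 18. Without Control 3, 31 were above 0 for AZ82 and 28 for CW069; the lowest counts with 1 library left out were 29 for AZ82, without Control 2, and 22 for CW069, without CW069 1. The CW069 median was 0.07 without CW069 2. Set against the median of all genes in place of 0, library size alone gave 33 for AZ82 and 27 for CW069. By library, the 38 genes had a median log2 deviation from their 9-library means of 0.06 in AZ82 1 and 0.05 in AZ82 2. In AZ82 3 it was -0.02, below Control 3 at -0.006, with Control 1 and 2 at -0.04 and -0.05. CW069 1, 2 and 3 were at 0.03, -0.04 and 0.04, so both inhibitor groups overlapped Control in this median. Marker lists of germ cells also differed in their counts above 0. In AZ82 against Control, round spermatid markers were above 0 in 5 of 5 (median 0.13), elongating spermatid markers in 9 of 9 (0.39) and spermatocyte markers in 1 of 7 (-0.09). In CW069 against Control the counts were 4, 7 and 0 (0.07, 0.05 and -0.05). Control 3 enters these values: its elongating spermatid markers summed to 6546 CPM, against 17354 in Control 1 and 15350 in Control 2. All CW069 libraries, at 12770 to 14960 CPM, lay below Control 1 and 2 in that sum, and AZ82 libraries ran from 15730 to 19130 CPM. The part of these cell types in the values of the 38 genes was not tested.

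At an unadjusted p under 0.05, 1 of the 38 was higher in AZ82 than in Control and 0 lower, beside 4.04% and 4.79% of all genes (8.84% in either direction). In CW069, 2 were higher and 0 lower, beside 3.63% and 3.71% (7.34% in either direction). These counts follow single libraries: the AZ82 count was 0 without Control 1, AZ82 1, CW069 1 or CW069 2, 2 without Control 2 or AZ82 2, and 3 without Control 3 or AZ82 3. The CW069 count was 0 without Control 1, AZ82 2 or CW069 3, 1 without AZ82 1, and 4 without Control 2, Control 3 or CW069 2. All libraries of one group lay above all of the other for 5 genes in AZ82 against Control (Katnal1, Spag17, Iqcg, Stk36 and Ift172; 6.65% of all genes) and for 5 in CW069 against Control (Rimbp3, Katna1, Katnal1, Stk36 and Ift46; 6.13% of all genes). The reverse order was found for 0 genes in AZ82 (8.62% of all genes) and for 1, Hook2, in CW069 (7.24%). For the mean of both inhibitors, 2 genes (Katnal1 and Stk36) had an unadjusted p under 0.05, both higher, and the same 2 had all inhibitor libraries above all Control libraries. The background for that p was 4.31% of all genes higher and 5.27% lower (9.57% in either direction), and for groups without overlap 2.19% higher and 2.92% lower. The p count of 2 was 0 without Control 1 or AZ82 1, 1 without any one CW069 library, 4 without Control 2 and 5 without Control 3.

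**Figure D3:**
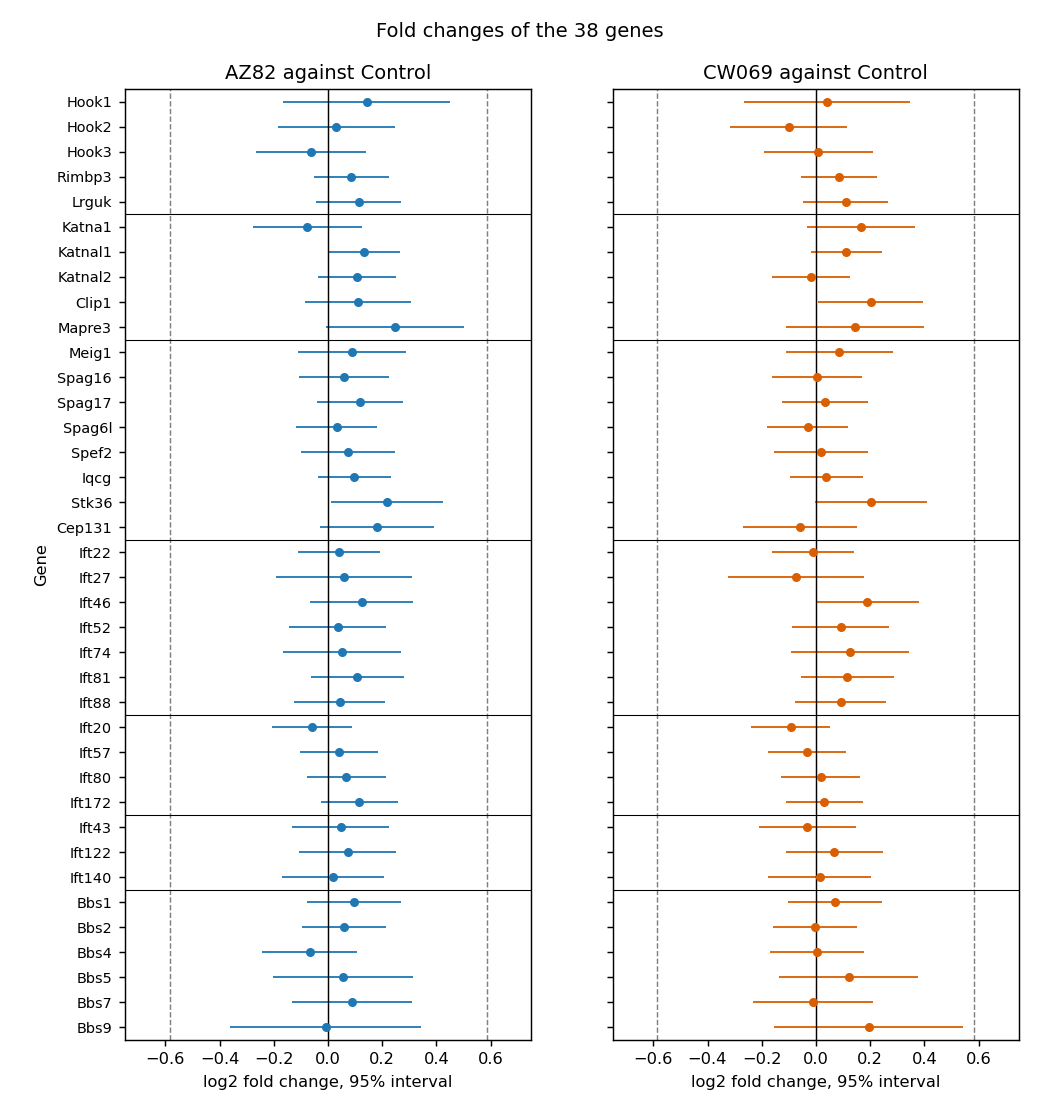
Log2 fold change of each of the 38 genes with its 95% interval, AZ82 against Control (left) and CW069 against Control (right), grouped by role. Dashed lines mark 1.5-fold in either direction; every interval lies inside them and nearly all include 0.

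Among the manchette linkers, Hook1 and Rimbp3 were the abundant members. Hook1, which is lost in mice with abnormally shaped sperm heads, stood at 582, 582 and 380 CPM in Control, 541, 579 and 582 in AZ82 and 546, 500 and 540 in CW069. Control 3 was the lowest of all 9 libraries by a wide margin and the groups overlapped. As a log2 fold change this was 0.14 ± 0.14 (SE) in AZ82 and 0.04 ± 0.14 in CW069, and without Control 3 it was -0.04 and -0.14. Its paralogs were far less abundant: Hook2 lay between 65.0 and 83.4 CPM and Hook3, a dynein adaptor, between 21.5 and 27.1 CPM. Per kilobase of principal transcript, Hook1 stood at 93.2 ± 21.1, Hook2 at 27.5 ± 2.61 and Hook3 at 1.99 ± 0.0912 in Control. Hook2 was at 67.0, 67.2 and 78.7 CPM in Control against 65.0, 66.8 and 66.8 in CW069, all lower than in Control though by little.

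Rimbp3 spread little between libraries. It stood at 762, 748 and 734 CPM in Control, 831, 761 and 790 in AZ82 and 788, 774 and 817 in CW069. The CW069 libraries were all above the Control libraries and AZ82 2 fell among them. Against Control it differed by 0.09 ± 0.06 on the log2 scale in AZ82 and 0.08 ± 0.06 in CW069, with edgeR adjusted p = 0.674 and 0.766. Without AZ82 1 the AZ82 value was 0.052. Lrguk, a guanylate kinase-like protein needed for the manchette and the tail, lay between 50.3 and 60.3 CPM over the 9 libraries.

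The severing proteins of the katanin family kept the order Katnal2, Katnal1, Katna1 per kilobase of principal transcript in each group. That order depends on the length used. The principal transcript of Katnal1 has 6157 bases, against a median of 1151 over its protein-coding transcripts. In plain CPM Katnal1, at 116 in Control, stood above Katnal2 at 92.1. Control means were 47.4 ± 1.44 CPM per kb for Katnal2, which acts in spermatids, 18.8 ± 0.658 for Katnal1, known for its part in Sertoli cells, and 15.2 ± 0.226 for Katna1, the classical catalytic subunit. Katnal1 stood at 111, 117 and 119 CPM in Control, 132, 122 and 126 in AZ82 and 125, 124 and 126 in CW069. All 6 inhibitor libraries were above all Control libraries. On the log2 scale Katnal1 differed by 0.13 ± 0.06 for AZ82 and 0.11 ± 0.06 for CW069, and for the mean of both 0.12 ± 0.05 with an unadjusted p of 0.0392 and an adjusted p of 0.51 in edgeR. Of its 50-base windows 10.0% also occur in the predicted gene Gm42791, so part of its reads may have been lost or placed there. Katnal2 lay between 89.3 and 104 CPM, with the groups overlapping.

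The plus-end proteins Clip1 and Mapre3 had low values in Control 3. Mapre3, an end-binding protein of growing microtubules, stood at 118, 142 and 102 CPM in Control, 157, 131 and 141 in AZ82 and 125, 134 and 141 in CW069. Control 2 lay among the inhibitor libraries. Its log2 fold change in AZ82, 0.25 ± 0.12 (95% interval -0.01 to 0.50), had the largest size among the 38, with an adjusted p of 0.569 in edgeR, and was 0.13 without Control 3 and 0.38 without Control 2. In CW069 it was 0.14 ± 0.11, and 0.03 without Control 3 and 0.28 without Control 2. Clip1, which links growing microtubule ends to other structures, stood at 343, 375 and 302 CPM in Control, 376, 381 and 344 in AZ82 and 371, 387 and 415 in CW069. CW069 1 fell below Control 2, so the groups overlapped. In AZ82 Clip1 had a log2 fold change of 0.11 ± 0.09, and in CW069 it was 0.20 ± 0.09 with an unadjusted p of 0.0437 and an adjusted p of 0.675 in edgeR. Without Control 3 these values were 0.03 and 0.12, and without Control 2 they were 0.18 and 0.28.

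Stk36 came nearest to a difference among the flagellar and basal body genes. It encodes the fused kinase, which is needed to build the central pair of motile cilia. It stood at 248, 269 and 233 CPM in Control, 313, 289 and 270 in AZ82 and 269, 270 and 323 in CW069. All 6 inhibitor libraries were above all Control libraries, though AZ82 3, CW069 1 and CW069 2 lay only just above Control 2. Stk36 had a log2 fold change of 0.22 ± 0.09 in AZ82 (95% interval 0.01 to 0.43; edgeR unadjusted p = 0.0405, adjusted p = 0.56) and 0.20 ± 0.09 in CW069 (adjusted p = 0.687). For the mean of both it was 0.21 ± 0.08, with an adjusted p of 0.499 in edgeR, the smallest of the 38 genes in that comparison. Leaving out CW069 3, its highest library, took the CW069 value to 0.11.

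Meig1, the most abundant gene of the set per kilobase, stood at 710, 803 and 634 CPM in Control, 719, 798 and 765 in AZ82 and 797, 734 and 750 in CW069. Control held both the highest and the lowest library. A log2 fold change of 0.09 ± 0.09 was found in each inhibitor group, and it depended on single Control libraries: it was 0.0039 and 0.0067 without Control 3 and 0.17 and 0.18 without Control 2, in AZ82 and CW069. The central-pair genes Spag16, Spag17 and Spag6l and the related Spef2 gave little spread: Spag6l ran from 337 to 383 CPM, Spag16 from 130 to 151, Spag17 from 636 to 758 and Spef2 from 64.1 to 77.5. Spag6, its paralog, ran from 123 to 151 CPM. Of the windows of Spag6l, 0.761% also occur in Spag6, so the copies are nearly always told apart. Iqcg, a protein of the axoneme's regulatory complex, ran from 93.7 to 107 CPM.

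Of the IFT-B core, Ift46 had the lowest p in CW069. It stood at 107, 109 and 119 CPM in Control, 131, 128 and 107 in AZ82 and 131, 120 and 131 in CW069. CW069 libraries were all above Control, CW069 2 by the least, while AZ82 3 stood close to the lowest Control library. Ift46 had a log2 fold change of 0.12 ± 0.09 in AZ82 and 0.19 ± 0.09 in CW069 (95% interval 0.00 to 0.38), with an unadjusted p of 0.0488 and an adjusted p of 0.68 in edgeR. The AZ82 value was 0.07 without AZ82 1 and 0.21 without AZ82 3. Ift74 stood at 172, 174 and 156 CPM in Control, 170, 189 and 161 in AZ82 and 183, 159 and 205 in CW069. Its groups overlapped, with 0.05 ± 0.10 in AZ82 and 0.13 ± 0.10 in CW069. The AZ82 value was -0.016 without AZ82 2 and 0.10 without AZ82 3, and the CW069 value 0.034 without CW069 3 and 0.21 without CW069 2. The remaining core genes, Ift22, Ift27, Ift52, Ift81 and Ift88, overlapped between each inhibitor group and Control. Ift88, a subunit without which neither cilia nor sperm tails form, ran from 88.2 to 106 CPM.

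In the peripheral part of IFT-B, Ift172 stood at 475, 504 and 478 CPM in Control, 558, 507 and 515 in AZ82 and 499, 491 and 500 in CW069. AZ82 libraries lay above both other groups and Control and CW069 overlapped. Against Control, Ift172 differed by 0.12 ± 0.06 on the log2 scale in AZ82 and 0.03 ± 0.06 in CW069, with edgeR adjusted p = 0.607 and 0.935. The AZ82 value was 0.073 without AZ82 1, and the CW069 value ran from 0.016 without Control 1 to 0.058 without Control 2. Ift20, which also serves at the Golgi and carries proteins towards the spermatid's acrosome and tail, ran from 28.5 to 32.8 CPM. Ift57 and Ift80 ran from 68.2 to 77.3 and from 128 to 145 CPM, with the groups overlapping.

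The IFT-A genes overlapped between groups. Ift140 stood at 713, 686 and 810 CPM in Control, 804, 720 and 714 in AZ82 and 717, 716 and 796 in CW069, so that each group held 1 high library and a lower pair. Ift140 had a log2 fold change of 0.02 ± 0.09 in AZ82 and 0.01 ± 0.09 in CW069, values whose sign turned with library size alone and when single libraries were left out. Ift122 and Ift43 ran from 341 to 406 and from 78.1 to 93.4 CPM. Control 3 was the highest Control library for all 3 IFT-A genes.

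BBSome genes also overlapped throughout. Bbs5 stood at 79.0, 89.4 and 62.3 CPM in Control, 79.2, 83.9 and 76.8 in AZ82 and 88.7, 76.4 and 85.8 in CW069, with Control again holding both the highest and the lowest library. Its log2 fold change was 0.06 ± 0.12 in AZ82 and 0.12 ± 0.12 in CW069, and -0.08 and -0.01 without Control 3. Bbs9 had the widest scatter of the 38, with 62.4, 70.0 and 98.3 CPM in Control, 88.8, 66.3 and 74.1 in AZ82 and 91.4, 92.2 and 80.5 in CW069. Control 3 was its highest library. Bbs1, which binds the small GTPase ARL6, and its partners Bbs2 and Bbs4 each stayed between 26.1 and 51.3 CPM, and Bbs7 between 99.8 and 127 CPM.

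**Figure D4:**
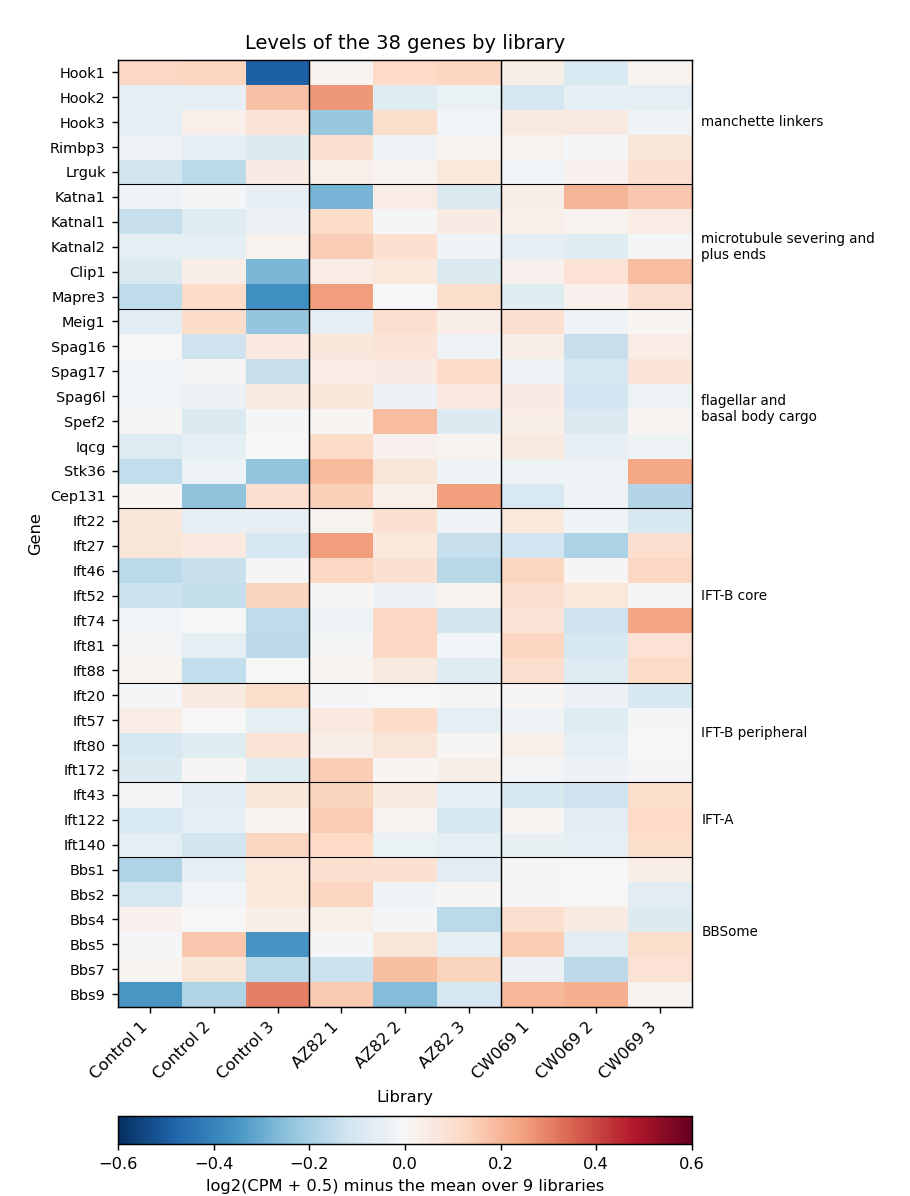
Level of each gene in each library, as log2(CPM + 0.5) minus the gene's mean over the 9 libraries, grouped by role. Most colours are pale; in Control 3, Hook1, Mapre3 and Bbs5 are low and Bbs9 is high.

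The inhibitor groups were also set against each other. Since the doses were 1 and 50 µM, this compares the injections as given and not the compounds at a matched dose. In CW069 against AZ82, 0 of the 38 genes were called (0% of all genes tested), with a smallest adjusted p of 0.962. DESeq2 and limma-voom called 0 as well. All 38 intervals lay within 1.5-fold, and at least 37 did without any 1 library. Log2 fold changes ran from -0.24 to 0.24 with a median of -0.03, and 11 were above 0 against 49.6% of all genes. By library size alone 19 were above 0 against 60.2% of all genes, and 12 of the 38 were then above the median of all genes. The unadjusted p was under 0.05 for 2 genes, 1 in each direction (2.58% of all genes higher, 2.39% lower and 4.97% in either direction). That count was 0 without AZ82 1 or CW069 3 and 1 without CW069 1 or CW069 2.

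Katna1 was the higher one. It stood at 22.6, 28.4 and 25.9 CPM in AZ82 and 28.3, 31.8 and 30.8 in CW069, beside 27.0, 27.4 and 26.6 in Control. CW069 1 fell just below AZ82 2, so the groups overlapped, while all CW069 libraries were above Control. The log2 fold change between inhibitors was 0.24 ± 0.09 (95% interval 0.04 to 0.44), with an unadjusted p of 0.0218 and an adjusted p of 0.962 in edgeR, and 0.16 without AZ82 1. Its predicted relative Gm6524 shares 2.72% of its windows. Cep131, a protein of centriolar satellites and the basal body, was the lower one. It stood at 105, 97.3 and 113 CPM in AZ82 and 89.4, 93.8 and 84.4 in CW069, beside 96.2, 80.4 and 102 in Control. The inhibitor groups did not overlap each other and both overlapped Control. The log2 fold change was -0.24 ± 0.10 (95% interval -0.45 to -0.03), with an unadjusted p of 0.0297 and an adjusted p of 0.977 in edgeR. Against Control, Cep131 was at 0.18 ± 0.10 in AZ82, which became 0.08 without Control 2, and at -0.06 ± 0.10 in CW069, which became 0.02 without Control 3. Ift172 was the other gene whose inhibitor groups did not overlap, also lower in CW069, which makes 2 lower (5.8% of all genes) and 0 higher (5.52%).

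Control 3, low in late spermatid transcripts, was not low in the 38 genes at their median. The median log2 ratio of Control 3 to the mean of Control 1 and 2 was 0.06 over the 38 genes and -1.21 over the 9 elongating spermatid markers. Of the 38, 14 were lower in Control 3 than in both other Control libraries (36.8%, beside 36.2% of all genes) and 20 were higher than in both (52.6%, beside 37.4%). The lowest ratios were those of Hook1 (-0.62), Bbs5 (-0.43), Mapre3 (-0.36), Meig1 (-0.26) and Clip1 (-0.25), and the highest was that of Bbs9 (0.57). With 1 such library these ratios have no replicate. Round spermatid markers were lower in Control 3 than in both others in 5 of 5, with a median of -0.17, and spermatocyte markers in 0 of 7. The 6 Leydig cell markers, none of them at 0, summed to 1641 to 1745 CPM in Control, 1391 to 1696 in AZ82 and 1340 to 1399 in CW069. The part of Leydig cells in the values of the 38 genes was not tested either.

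**Figure D5:**
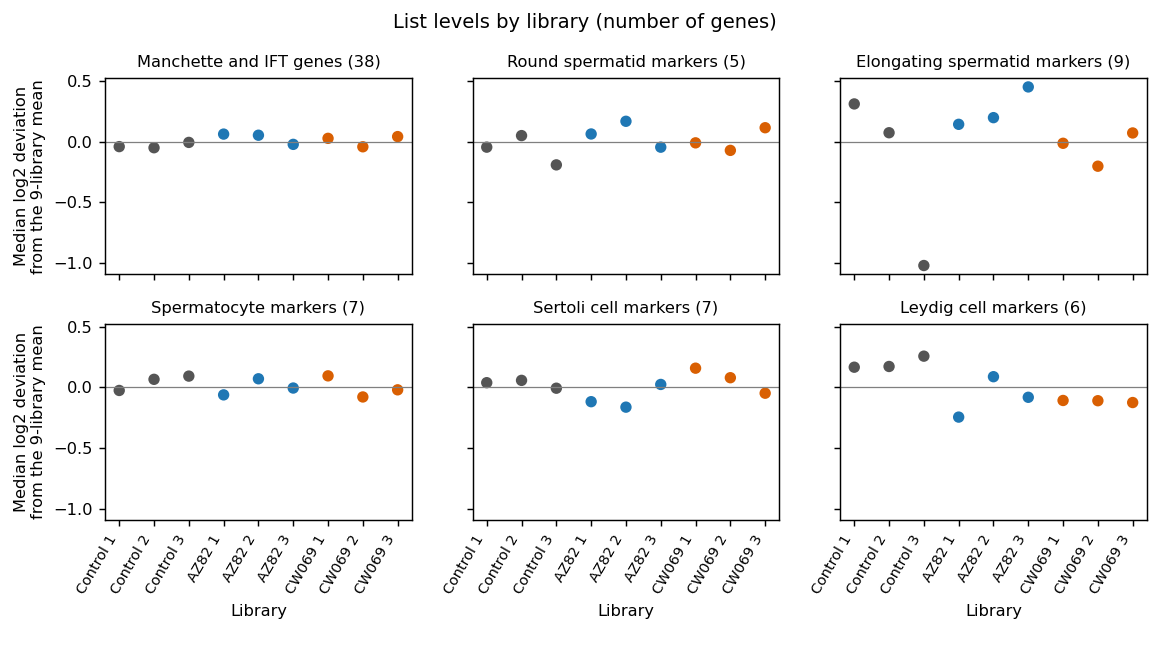
Median log2 deviation from the 9-library mean for the 38 genes and for markers of 5 cell types, 1 point per library (grey Control, blue AZ82, orange CW069). Elongating spermatid markers drop to -1.02 in Control 3, while the median of the 38 genes stays between -0.05 and 0.06 in all libraries.

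Genes of the same machinery outside the 38 were read from 4 further lists. None of the 13 other IFT subunits, 10 IFT motor subunits, 7 other BBSome and assembly genes or 22 other manchette genes was called in edgeR in any comparison. At an unadjusted p under 0.05 these lists held 0, 0, 0 and 2 genes in AZ82 against Control and 0, 1, 0 and 1 in CW069 against Control, beside 8.84% and 7.34% of all genes. In AZ82 against Control 10 of the 13 IFT subunits were above 0, their median being 0.03 on the log2 scale, and in CW069 11 of 13 were, their median being 0.04. The motors gave 7 and 5 of 10, the other BBSome genes 2 and 2 of 7, and the other manchette genes 16 and 15 of 22, with medians for the last of 0.09 and 0.05, beside 49.7% and 49.0% of all genes above 0. The genes with the smallest p for the mean of both inhibitors were small differences again. For that mean, Ttc21a and Rabl2 gave log2 fold changes of 0.19 ± 0.08 and 0.14 ± 0.06 among IFT genes, Kif3a and Kif3c, both kinesin motors of IFT, 0.12 ± 0.05 and -0.32 ± 0.16. Bbs12 and Bbip1 gave -0.31 ± 0.15 and 0.06 ± 0.06, and Spag4, a nuclear envelope protein, 0.23 ± 0.10. Kif3c and Bbs12 had few counts, 39 to 71 and 74 to 133 per library, against 295 or more for each of the 38. Without Control 3, Spag4 was at 0.085 and Ttc21a at 0.12 for that mean.

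Promoters of these other pathway genes were searched in the same way. An X-box was found in 1 of 36 such genes in the RefSeq table (2.38% of 42 promoters), an X-box core in 12 (28.6%) and a cAMP response element in 5 (11.9%). The remaining genes of the lists were not found in that table under the names searched, so their promoters were not read. Whether the 38 and the other pathway genes differ in this was not tested.

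RFX transcription factors, which bind the X-box, and other transcription regulators were read beside the promoters that hold an X-box. Rfx1 stood at 112, 117 and 115 CPM in Control, 148, 140 and 132 in AZ82 and 126, 137 and 156 in CW069. All 6 inhibitor libraries were above Control, an order found in 2.19% of all genes. For Rfx1 the log2 fold change was 0.29 ± 0.08 in AZ82 and 0.28 ± 0.08 in CW069, with unadjusted p of 0.00543 and 0.00626 and adjusted p of 0.554 and 0.535 in edgeR. Rfx2, a regulator of spermatid development, stood at 418, 435 and 441 CPM in Control, 516, 475 and 469 in AZ82 and 462, 481 and 522 in CW069, again all above Control. For Rfx2 the log2 fold change was 0.18 ± 0.07 in each group, with adjusted p of 0.554 and 0.646. Rfx3 gave 0.23 ± 0.09 in AZ82 and 0.12 ± 0.09 in CW069, and 0.14 and 0.04 without Control 3. Group means of Crem were 213, 229 and 216 CPM in Control, AZ82 and CW069, and those of Foxj1, a master regulator of motile cilia, 76.7, 88.2 and 83.6 CPM. Rfx4 gave 0.14 ± 0.08 in AZ82 and 0.08 ± 0.08 in CW069, with the groups overlapping. Tbpl1 gave -0.03 and -0.02, and Mybl1 -0.06 and -0.05. Of these 8 regulators, not all of them RFX factors, 0 were called by edgeR in either comparison. At an unadjusted p under 0.05, 3 in AZ82 (Rfx1, Rfx2 and Rfx3) and 2 in CW069 (Rfx1 and Rfx2) were higher, beside 4.04% and 3.63% of all genes.

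Among the 9 genes with an X-box, 0 were called, as for the rest. Mapre3 had the largest log2 fold change of the 9 in AZ82, at 0.25 ± 0.12. Stk36, Clip1 and Ift46, which had an unadjusted p under 0.05 in edgeR against Control, have no X-box in the window read. The shorter X-box core, found in 16 of the 31 genes, occurs in Stk36 at bases 12 to 17 and not in Clip1 or Ift46. Katnal1 has a core at bases -155 to -150 and no X-box. No relation between promoter motif and fold change was tested.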

How the data were processed

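Testis RNA was sequenced in 9 libraries, 3 per group. The deposited values are whole-number counts of reads per gene, with no normalization by the authors. Per the submitters' processing notes, Trimmomatic, HISAT2, HTSeq and GRCm39 were used; settings, strand included, are not given in the sources used here. Per the labels' protocols, a stranded mRNA kit made the libraries. The 9 deposited sample tables were identical with the joint table.

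In R 4.3.3, low counts were removed with filterByExpr, and edgeR 4.0.16 fitted group means to the TMM-scaled counts of all 9 libraries, leaving 6 residual degrees of freedom. Alternatives were RLE factors, library size alone, no filter, 1 CPM in 3 libraries, DESeq2 1.42.0, limma 3.58.1 voom, the compared groups alone, a replicate block and leaving out each library. The procedure was tested on simulated data. Lengths are of GENCODE principal transcripts on GRCm38, an earlier build than that of the counts. Exact tests of 3 against 3 cannot go below 0.1 and were not used. The members and lists were chosen with earlier results of these data known. Genes given in full were those with an unadjusted p under 0.05, the highest per kilobase in each role, paralog sets, and from other pathway lists the pair of smallest p; 1 gene of the last kind is not reported here. Bbs9, and genes named for not overlapping, were chosen after their values were seen.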

Additional observations from a re-analysis of the deposited data

How the results depend on the processing

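Over 67 alternative fits, 0 of the 38 genes were called, with a smallest adjusted p of 0.249 and a largest log2 fold change in size of 0.41. With library size alone the median log2 fold change of the 38 was -0.01201 for AZ82, -0.01209 for CW069 and -0.00116 for the mean of both. The number at an unadjusted p under 0.05 was then 0, 0 and 0, and 1 for CW069 against AZ82. For AZ82 that number was 2 with RLE factors, 2 with no filter and 3 with limma-voom. With the replicate block it was 0 for AZ82, 0 for CW069 and 0 for the mean of both; same-numbered libraries deviated together with r of -0.169 to 0.0468, so the numbers were not read as pairs. Leaving out 1 library gave 0 to 3 for AZ82, 0 to 4 for CW069, 0 to 2 between inhibitors and 0 to 5 for the mean of both (0 without Control 1 or AZ82 1, 1 without any CW069 library, 4 without Control 2, 5 without Control 3). The X-box core was found in 9 genes when only upstream bases were read.

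Signs turned with library size alone for Bbs5 (-0.016), Ift140 (-0.065) and Ift74 (-0.026) in AZ82, Ift140 (-0.039) and Ift172 (-0.016) in CW069 and Bbip1 (-0.0057) for the mean of both. That scaling moved all genes, whose median became -0.0807 in AZ82, -0.051 in CW069 and -0.0669 for the mean of both. With 1 library left out, AZ82 values ran from -0.038 to 0.089 for Ift140, -0.078 to 0.18 for Bbs5, -0.039 to 0.24 for Hook1 and -0.016 to 0.10 for Ift74. CW069 values ran from -0.039 to 0.088 for Ift140, -0.0099 to 0.24 for Bbs5, -0.15 to 0.016 for Cep131 and -0.14 to 0.14 for Hook1. The cause of these last ranges was not tested. The 3 libraries per group and 295 or more counts per gene left intervals of 0.18 to either side at the median of the 38. The counts above 0 and of intervals within 1.5-fold under these settings were added after seeing the data.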

Other observations

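Control 3 also stood low in some genes of the manchette and of IFT outside the 38, chosen here after their values were seen. Spem1, which is needed to strip cytoplasm from the spermatid, was at 127 CPM in Control 3 against 401 and 367 CPM in Control 1 and 2. Kif17, a kinesin of IFT that also travels along the manchette, was at 221 against 458 and 406 CPM. Clasp1, a plus-end protein, was at 102 against 164 and 158 CPM, and Sun3, which links the manchette to the nuclear envelope, at 57.5 against 80.0 and 93.6 CPM. Ccdc42 and Ccdc38, both also found on the manchette, showed no such drop, with log2 ratios of -0.03 and 0.10. Of the 22 other manchette genes, 12 were lower in Control 3 than in both other Control libraries (54.5%, beside 36.2% of all genes), and of the 10 motor genes 3 were.

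Rnf19a, an E3 ligase found on the manchette, had the smallest p of the other pathway genes between inhibitors. It stood at 766, 717 and 687 CPM in AZ82 and 609, 559 and 625 in CW069, without overlap, beside 704, 599 and 569 in Control. The log2 fold change of CW069 against AZ82 was -0.28 ± 0.09, with an adjusted p of 0.958 in edgeR.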
